A study of Mus musculus with 16 samples.

Results

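Prohormone processing and granin genes were followed in the islet transcriptome of 8 inbred mouse strains. The 10 genes were chosen by name from their place in the regulated secretory pathway, and the rule used no measured value. Earlier results of these data were known when the choice was made. The genes were Pcsk1 and Pcsk2, Pcsk1n and Scg5, Cpe, Chga, Chgb, Scg2 and Scg3, and Ptprn. All 10 were found among the 54146 genes listed in the deposited tables, and all 10 were among the 15204 genes that passed the filter on variance and zero counts and were tested. Their identifiers and GRCm38 positions are given below where each gene is first described.

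Islet hormones are made as larger precursors that are sorted into dense-core granules and cut there. The convertases PC1/3 (Pcsk1) and PC2 (Pcsk2) cleave the precursors at pairs of basic residues, and carboxypeptidase E (Cpe) then removes the basic residues left at the cut ends. ProSAAS (Pcsk1n) can inhibit PC1/3, and 7B2 (Scg5) is a chaperone that PC2 needs to mature. Granins are acidic proteins that aggregate with the hormones in the forming granule and are themselves precursors of peptides, and Ptprn codes for the granule membrane protein IA-2.

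The data were RNA-seq counts from whole islets of mice aged 26 weeks, and a high-fat diet was given in every group. The strains were 129S1_SvImJ (129, 10 libraries), A_J (AJ, 14), C57BL/6J (B6, 18), CAST_EiJ (CAST, 14), NOD_ShiLtJ (NOD, 10), NZO_HlLtJ (NZO, 4), PWK_PhJ (PWK, 5) and WSB_EiJ (WSB, 16). Both sexes were present in each strain, but NZO had 1 male and PWK had 1 female library, and whether each library came from a different mouse was not stated in the sources used here. The p-values therefore measure the spread between libraries, which may in part be technical.

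Total expected counts were 16928552 to 35196145 per library. Islet endocrine RNA was followed with 16 genes used by all islet endocrine cells. None of these genes was at 0 in every library, which by itself does not establish islet identity. Their summed level, in TPM (transcript abundance scaled to the same total in each library), had medians from 883 in NOD to 1642 in 129. Acinar digestive enzyme genes, which mark exocrine tissue, summed to 2275 to 414250 TPM over 15 genes, and 15 libraries exceeded 200000 TPM (4 of B6, 4 of CAST, 3 of NOD, 1 of PWK and 3 of WSB). Lymphocyte genes (15 genes) summed to 19.2 to 2362 TPM in NOD and to at most 153 TPM in any library of the other strains. In bulk islet RNA, fewer cells of a type and less RNA per cell cannot be told apart. In 12 libraries (6 from 129, 4 from WSB and 2 from NOD) the Xist and Y-linked counts went against the labelled sex. RNA was collected in 4 waves, the last with libraries built at another site, but the labels do not say which library belongs to which wave. Library numbers in 129, NOD, NZO and PWK were all higher than in the other 4 strains, so a batch that follows the numbers cannot be told apart from strain across those sets.

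The 10 genes were among the most abundant transcripts of the islet. Chga (chromogranin A) had the highest mean, 6178 TPM ± 2492 (SD, n = 91 libraries), which ranked it 12 of the 15204 tested genes. Scg2 (secretogranin II) followed with 3525 TPM ± 2085, and Cpe with 1683 TPM ± 446. Scg5, Scg3, Pcsk2, Chgb and Pcsk1n had means between 407 and 823 TPM. Ptprn, at 182 TPM ± 44.1, and Pcsk1, at 105 TPM ± 32.3, were the lowest of the group, and even Pcsk1 was above 96.8% of the tested genes. Together the 10 genes made up 1.70% ± 0.0959 (SD, n = 10) of all TPM in 129, the highest strain mean, and 0.897% ± 0.205 (SD, n = 10) in NOD, the lowest. TPM in a library falls where acinar transcripts take up more of it, so strains were tested on normalized counts, in which each library is scaled by its upper quartile.

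**Figure D1:**
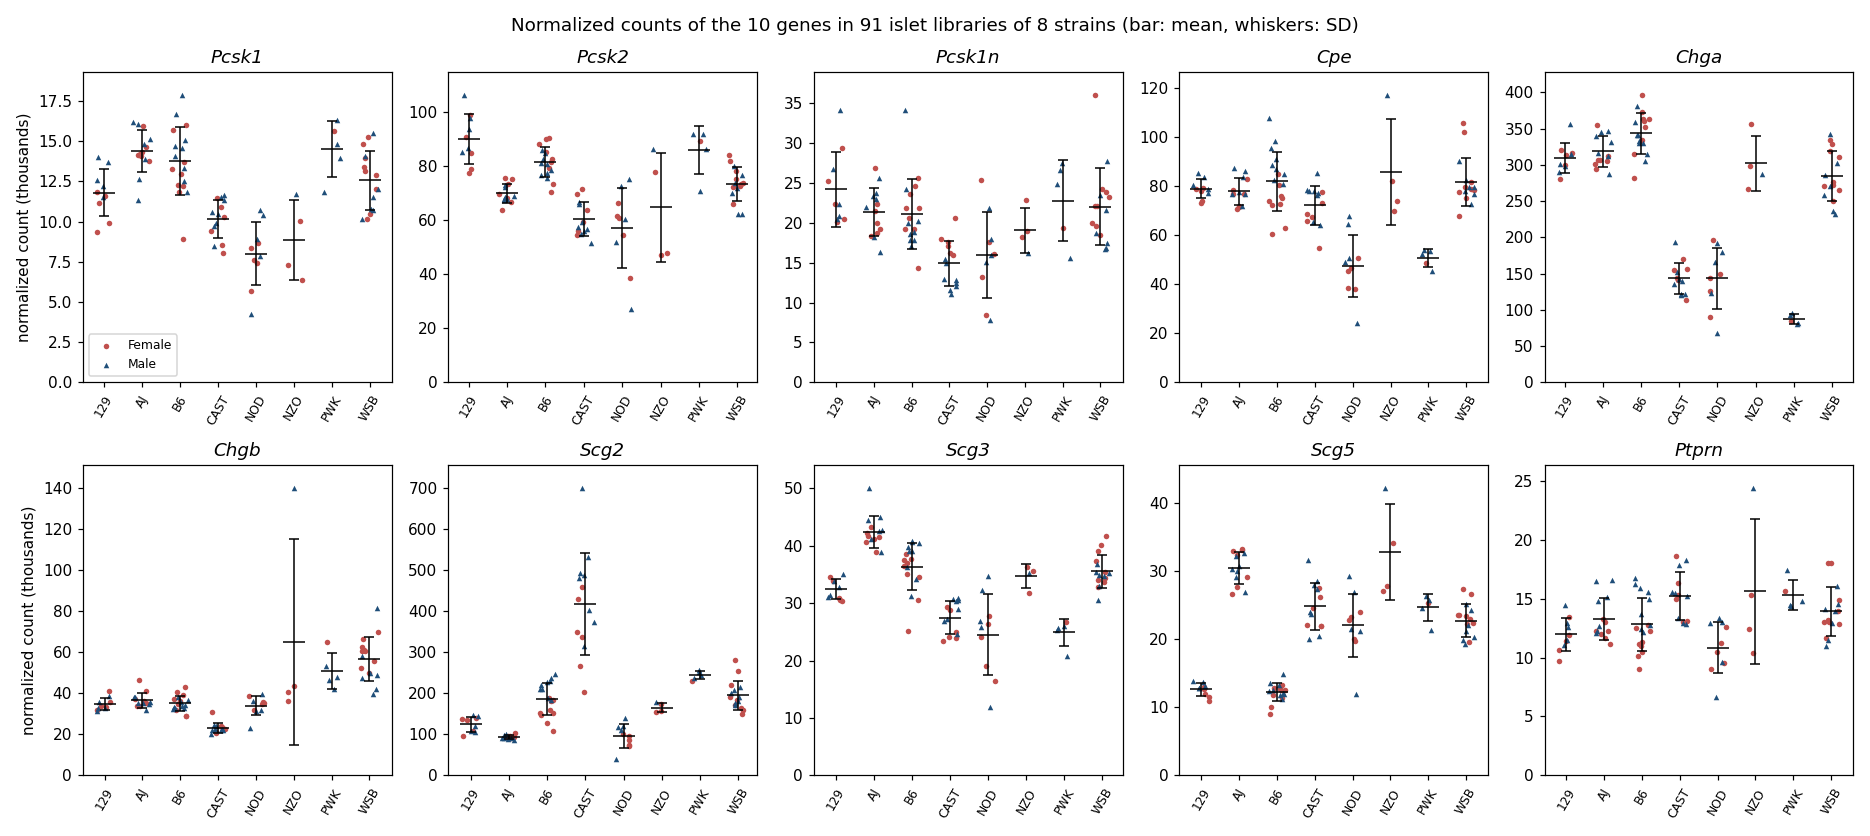
Normalized counts (scaled as marked on the linear axes, which start at 0) of each gene in the 91 libraries, by strain, with females as circles and males as triangles; the bar is the strain mean and the whiskers are the SD. Chga separated into a group of 5 high and a group of 3 low strains without overlap, CAST was high for Scg2, B6 and 129 were low for Scg5, and 1 NZO male library was far above the others for Chgb.

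All 10 genes differed between the strains (edgeR's quasi-likelihood F test with Benjamini-Hochberg adjustment, adjusted p from 1.53e-34 for Scg5 to 1.74e-05 for Ptprn). This test called 97.4% of all tested genes, so the call itself does not set the 10 genes apart. The size of the strain differences varied more. The log2 difference between the highest and the lowest strain was 2.12 for Scg2, 1.98 for Chga, 1.49 for Chgb and 1.43 for Scg5, and for the other 6 genes it was between 0.54 and 0.88. A difference of at least 1 on the log2 scale was thus seen for 4 of the 10 genes, beside 44.4% of all tested genes. Of the 280 comparisons between pairs of strains, 170 (60.7%) were called, against 50.3% over all genes.

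Each strain was then compared with the unweighted mean of the other 7, which gives a profile of the granule genes for each strain. In WSB, 6 of the 10 genes were higher and 0 lower, where 26.6% of all genes were higher and 29.7% lower, and 3 were higher and 0 lower with the level of lymphocyte genes as a covariate (25.4% and 26% of all genes). AJ had 5 higher and 1 lower (24.9% and 32.1% of all genes). All 14 tested acinar genes (median -3.71), 11 of 12 lymphocyte genes and 7 of 9 macrophage genes were also lower in AJ. This was not particular to AJ. Acinar genes were lower in 129 (13 of 14) but higher in CAST and NOD (14 of 14 each) and B6 (9 of 14). Lymphocyte genes were lower in B6 (12 of 12), WSB (11) and CAST (8), and macrophage genes in 129 (9 of 9), CAST (8), WSB (7) and B6 (6). In NOD all 12 lymphocyte and 9 macrophage genes were higher, as were 5 macrophage genes in NZO. Of the 10 genes, B6 had 5 higher and 2 lower (25.6% and 27.6%). With the lymphocyte covariate B6 had 3 higher and 3 lower (21.3% and 22.8% of all genes). PWK was mixed, with 5 higher and 3 lower (23.2% and 21.8%), as was 129 with 4 and 4 (27.9% and 21%). NZO had 4 higher and 1 lower (20% and 14.2%), and without its male library 2 higher (Chga and Scg5) and 2 lower (Pcsk1 and Pcsk2), where 13.6% and 10.1% of all genes were. Leaving out that library, which enters the mean that the other strains are compared with, also moved the lower count from 4 to 2 in 129 and from 2 to 1 in B6, beside 4 and 5 higher (27.6% of all genes higher and 20.1% lower in 129, and 25.1% and 26.9% in B6). CAST had 3 higher and 6 lower (26.7% and 31%). In NOD none of the 10 genes was higher and 9 were lower, where 35.8% of all genes were higher and 29.5% lower. Scg5 was the gene not called in NOD, at a log2 difference of 0.04 (SE 0.06, adjusted p = 0.644). The NOD, 129, PWK and NZO profiles depended on how libraries were scaled, and scaling by the 16 endocrine genes (endocrine scaling, described further on) gave 1 higher and 7 lower in 129. One male NOD library, replicate 7, was the lowest of the strain on normalized counts for all 10 genes (Scg2 39595 against 71390 in the next, and Cpe 24054 against 37790). Without it 9 genes were lower in NOD and 0 higher, and Scg5 was again not called. The shares of all genes in that fit were not computed.

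**Figure D2:**
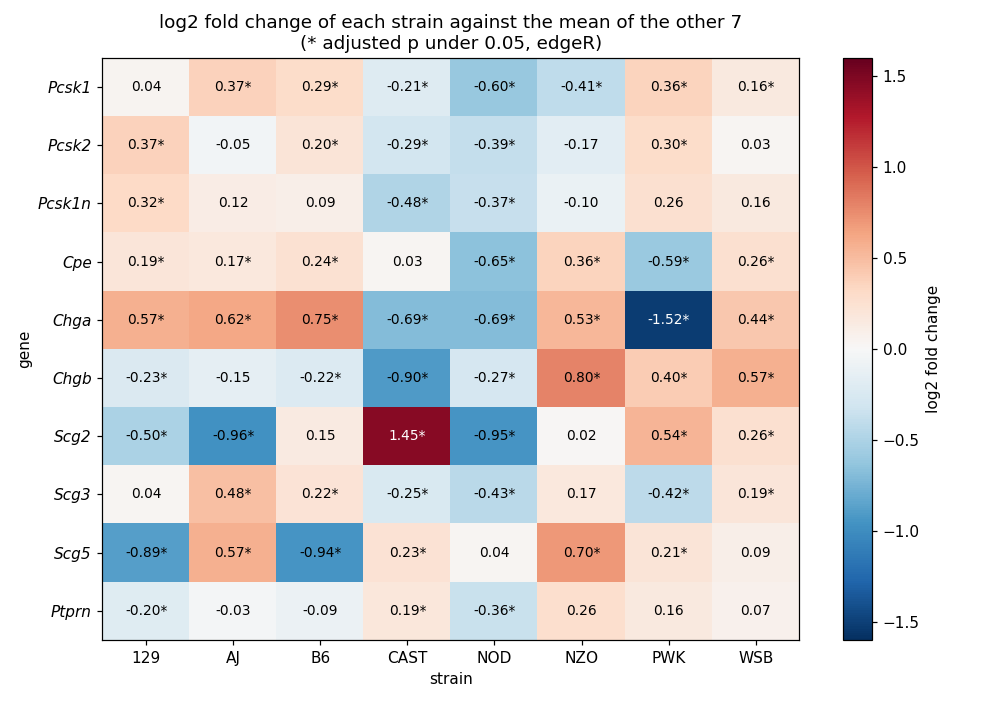
log2 fold change of each strain against the mean of the other 7 for the 10 genes (rows) and 8 strains (columns), red higher and blue lower, with an asterisk at an adjusted p under 0.05 in edgeR's quasi-likelihood test. The darkest cells are Chga in PWK (-1.52) and Scg2 in CAST (1.45), and Scg5 is near -0.9 in both B6 and 129.

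Scg5, Chga and Scg2 had wide strain differences that did not rest on a single library, and the start regions of these 3 genes are shown to give the reference sequence upstream of them. Each runs from 250 bases before to 50 bases after the annotated start, taken from RefSeq on GRCm38.p6, in the B6 reference sequence. The alleles of the other 7 strains were not read. Capitals mark the letters TGACG or their reverse complement CGTCA, which form the cAMP response element, and TATAAA. Scg2 lies at chr1:79439977-79440276 (minus strand), Scg5 at chr2:113829042-113829341 (minus strand) and Chga at chr12:102554691-102554990 (plus strand).
Scg2: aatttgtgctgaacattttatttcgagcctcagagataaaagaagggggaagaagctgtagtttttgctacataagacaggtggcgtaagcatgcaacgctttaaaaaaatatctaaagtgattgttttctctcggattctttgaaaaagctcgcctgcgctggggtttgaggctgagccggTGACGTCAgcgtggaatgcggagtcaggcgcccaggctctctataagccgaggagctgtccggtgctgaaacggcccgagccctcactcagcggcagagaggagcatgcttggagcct
Scg5: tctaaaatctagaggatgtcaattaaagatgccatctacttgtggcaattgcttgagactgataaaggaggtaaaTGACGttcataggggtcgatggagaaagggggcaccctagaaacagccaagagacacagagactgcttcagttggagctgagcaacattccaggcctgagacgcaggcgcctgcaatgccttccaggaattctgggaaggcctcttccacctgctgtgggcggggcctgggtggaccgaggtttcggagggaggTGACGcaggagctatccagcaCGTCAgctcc
Chga: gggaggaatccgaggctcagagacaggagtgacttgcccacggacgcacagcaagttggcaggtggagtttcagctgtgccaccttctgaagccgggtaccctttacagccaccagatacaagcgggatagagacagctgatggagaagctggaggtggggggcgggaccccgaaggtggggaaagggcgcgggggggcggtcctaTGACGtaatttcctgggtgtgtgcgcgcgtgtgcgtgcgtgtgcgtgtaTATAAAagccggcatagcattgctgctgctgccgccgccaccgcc
The full palindrome TGACGTCA, searched on both strands, occurred at -68 from the start of Scg2, at -72 in Chgb and at -78 in Pcsk1. These were 3 of the 10 windows found for 9 of the genes (Ptprn has 2), and 1.79% of all 32851 RefSeq windows held it. The shorter TGACG, which is contained in the palindrome, was present in 8 of the 10 windows and in 20.8% of all windows. GGGCGG was present in 7 of 10 against 35.7%, TATAAA in 1 of 10 (Chga) against 13.6%, and CAGATG in 0 of 10 against 17.2%. The letters are a description of the sequence and were not related to the strain differences.

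Pcsk1 (ENSMUSG00000021587.5, chromosome 13, 75089826 to 75134861), the convertase of proinsulin and other precursors, had medians from 65 TPM in NOD (40.1 to 96.9, n = 10) to 161 TPM in PWK. The 5 PWK libraries were at 132, 161, 166, 69.5 and 176 TPM. In AJ the values lay between 104 and 150 TPM with a median of 138 (n = 14), and in the 4 NZO libraries they were 93.3, 66, 53.9 and 96.8 TPM. The libraries of NOD and AJ did not overlap, whereas PWK overlapped with NOD through its library with 69.5 TPM. In the model, Pcsk1 was highest in AJ (log2 fold change 0.37, SE 0.07, adjusted p = 1.47e-06) and lowest in NOD (-0.60, SE 0.08, adjusted p = 4.54e-10), and it was also lower in NZO and CAST. The NOD value was -0.08 and not called with endocrine scaling, and -0.37 with the lymphocyte covariate. PWK and AJ, neighbours at the top of the order, did not differ beyond their spread (log2 difference 0.01, SE 0.12).

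Pcsk2 (ENSMUSG00000027419.9, chromosome 2, 143546156 to 143816285), the convertase that dominates in glucagon-producing cells and also acts on proinsulin, was the more abundant of the pair in every library. Its strain means ran from 500 TPM ± 132 (SD, n = 14) in CAST to 947 TPM ± 140 (SD, n = 10) in 129. On normalized counts Pcsk2 was higher in 129 (log2 fold change 0.37, SE 0.07, adjusted p = 7.75e-06) and lower in NOD (-0.39, SE 0.07, adjusted p = 4.3e-06), while none of the 7 differences between neighbours in the order of the strains was called. Both calls were lost with endocrine scaling, where the signs turned (129 -0.01 and NOD 0.09), and the NOD call was lost with the lymphocyte covariate (-0.10). The 129 call was also lost when the libraries of each sample were summed. Pcsk2 overlaps an antisense gene, Pcsk2os1, at 9.65 TPM on average. Whether the counting used the strand was not given in the sources used here.

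Pcsk1n (ENSMUSG00000039278.10, X chromosome, 7919822 to 7924410), the proSAAS gene, had the fewest called pairs of strains, 10 of 28. It was lowest in CAST, where the libraries had a median of 259 TPM (137 to 458, n = 14), and highest in 129, with a median of 515 TPM (442 to 802, n = 10). The ranges of CAST and 129 overlapped in TPM and on normalized counts. The log2 fold changes were -0.48 in CAST (SE 0.09, adjusted p = 9.6e-06) and 0.32 in 129 (SE 0.10, adjusted p = 0.00585). Without the 12 libraries whose sex markers went against the label, the 129 value was 0.25 and was no longer called (adjusted p = 0.184), and with endocrine scaling it turned to -0.05 and was not called.

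Scg5 (ENSMUSG00000023236.7, chromosome 2, 113776362 to 113829121), which codes for the PC2 chaperone 7B2, was low in 2 of the 8 strains. B6 had a median of 488 TPM (168 to 566, n = 18) and 129 a median of 546 TPM (442 to 648, n = 10). The medians of AJ, CAST, NOD and WSB were 1260, 864, 875 and 846 TPM. The PWK libraries had 1097, 1173, 1154, 552 and 1259 TPM, and the NZO libraries 1414, 1082, 1045 and 1554 TPM. B6 and 129 were thus the low pair, although in TPM the lowest libraries of CAST, NOD, PWK and WSB reached into their range. On normalized counts (12193 ± 1322 in B6 and 12614 ± 929 in 129, SD) the single overlap was the lowest NOD library, at 11982. The log2 fold change was -0.94 in B6 (SE 0.05, adjusted p = 2.25e-27) and -0.89 in 129 (SE 0.07, adjusted p = 2.44e-19). The difference between B6 and 129 was not called (log2 difference 0.05, SE 0.07, adjusted p = 0.632), whereas NOD, the next strain in the order, was higher than 129 by 0.81 (SE 0.09, adjusted p = 9.88e-14). At the other end, Scg5 was higher in NZO (0.70, SE 0.09, adjusted p = 7.41e-10) and AJ (0.57, SE 0.05).

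The difference was clearest relative to its partner. In TPM, which takes account of gene length, the Pcsk2 level in all 28 libraries of B6 and 129 was above the Scg5 level, by at least 1.36 times, and in all 63 libraries of the other strains it was below, at most 0.897 times the Scg5 level. The geometric mean of the ratio was 1.71 in 129 and 1.6 in B6, 0.835 in PWK, 0.777 in WSB, 0.609 in NOD, 0.585 in CAST, 0.550 in AJ and 0.463 in NZO. Strain accounted for 96.7% of the variance of the log2 ratio (permutation test of strain, 100000 resamples, one-sided, p = 1e-05, the smallest they can give). A ratio within a library does not change with the scaling of the library.

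Cpe (ENSMUSG00000037852.8, chromosome 8, 64592542 to 64693054), the carboxypeptidase, was lower in NOD and PWK than in the other strains. The NOD libraries had a median of 1105 TPM (718 to 1336, n = 10), and the PWK libraries had 1231, 1418, 1315, 645 and 1412 TPM. AJ (1751 to 2062 TPM, n = 14) and 129 (1680 to 2300 TPM, n = 10) lay wholly above both. The log2 fold changes were -0.65 in NOD (SE 0.07, adjusted p = 1.25e-12) and -0.59 in PWK (SE 0.10, adjusted p = 1.13e-06). In NOD the value was -0.16 with endocrine scaling, -0.31 with the lymphocyte covariate, and -0.14 and not called with endocrine scaling without the libraries over 200000 acinar TPM. In PWK it was -0.68, -0.54 and -0.67 in these fits. The difference between NOD and PWK was not called (log2 difference 0.05, SE 0.11), and CAST, next above them, was higher than PWK by 0.54 (SE 0.11, adjusted p = 3.66e-05). Cpe was higher in NZO (0.36, SE 0.10, adjusted p = 0.00415), but without the single NZO male library the value was 0.21 and was not called (adjusted p = 0.216).

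Chga (ENSMUSG00000021194.6, chromosome 12, 102554969 to 102565028), chromogranin A, a granin involved in granule formation, had the most complete separation of strains among the 10 genes. The medians were 8514 TPM in 129 (7483 to 9959, n = 10), 8350 in AJ (7591 to 8963, n = 14), 8375 in B6 (3696 to 10146, n = 18) and 6711 in WSB (4566 to 7401, n = 16). The NZO libraries had 9231, 6675, 7002 and 6617 TPM. Lower medians were found in NOD, at 3413 TPM (1774 to 4427, n = 10), and in CAST, at 3225 TPM (1728 to 4684, n = 14), and the PWK libraries had 2495, 2785, 2308, 1306 and 2656 TPM.
In TPM the 2 sets of strains overlapped only where libraries of B6 and WSB fell below the highest libraries of CAST or NOD. On normalized counts they did not overlap, since the lowest of the 62 libraries of 129, AJ, B6, NZO and WSB had 232098 and the highest of the 29 libraries of CAST, NOD and PWK had 196186. Among the 70 positions between neighbouring strains over the 10 genes, this was the single one at which all libraries above and below were separated. The share of such positions over all tested genes was not computed.
Chga was 2.87-fold lower in PWK than in the mean of the other strains (log2 fold change -1.52, SE 0.13, adjusted p = 6.74e-18). It was lower in CAST and NOD (-0.69 in each by upper quartile) and highest in B6 (0.75, SE 0.06, adjusted p = 2.32e-18). CAST and NOD were not called different, and both were above PWK (CAST by 0.72, SE 0.13, adjusted p = 2.76e-06). With endocrine scaling the value was -0.23 in NOD and -0.70 in CAST, and with the lymphocyte covariate it was -0.29 in NOD and not called.

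Chgb (ENSMUSG00000027350.8, chromosome 2, 132781278 to 132795079), chromogranin B, followed a different order. It was lowest in CAST, with a median of 348 TPM (197 to 516, n = 14), and higher in WSB, with a median of 856 TPM (at most 1214, n = 16). The PWK libraries had 834, 930, 997, 457 and 1347 TPM. The NZO libraries had 752, 601 and 635 TPM in the females and 2155 TPM in the male. In the model Chgb fell by 0.90 on the log2 scale in CAST (SE 0.08, adjusted p = 4.87e-16), a call that was lost when the libraries of each sample were summed. Chgb was higher in WSB (0.57, SE 0.07, adjusted p = 1.69e-10) and PWK (0.40, SE 0.12, adjusted p = 0.00375), the latter not called with endocrine scaling (0.29, adjusted p = 0.0922). The value of 0.80 in NZO (SE 0.13, adjusted p = 1.8e-07) rested on the male library, since without it the value was 0.04 (adjusted p = 0.851). On normalized counts this male library was the highest of NZO for 7 of the 10 genes, all but Pcsk1n, Chga and Scg3. PWK therefore combined the lowest Chga with a mean Chgb level above that of 5 other strains. The ratio of Chga to Chgb had a geometric mean of 2.59 in PWK and 14.7 in B6, a 5.68-fold span, and 85% of the variance of its log2 value lay between strains (permutation test, p = 1e-05, the smallest 100000 resamples can give).

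Scg2 (ENSMUSG00000050711.7, chromosome 1, 79434669 to 79440120), secretogranin II, the precursor of secretoneurin, had the widest range. CAST had a median of 6147 TPM (3536 to 13165, n = 14), against 1889 TPM in AJ (1636 to 2126, n = 14) and 1717 TPM in NOD (1166 to 2331, n = 10). The PWK libraries came next to CAST, with 5196, 5889, 5364, 3004 and 5594 TPM. All CAST libraries were above all libraries of AJ, NOD, NZO and 129, but they overlapped with those of B6, WSB and PWK. Scg2 was 2.74-fold higher in CAST than in the mean of the other strains (log2 fold change 1.45, SE 0.08, adjusted p = 9.02e-28) and higher than in PWK by 0.80 (SE 0.17, adjusted p = 4.22e-05). It was lower in AJ (-0.96, SE 0.10, adjusted p = 3.1e-14), in NOD (-0.95, SE 0.11, adjusted p = 5.47e-12) and in 129 (-0.50, SE 0.11). The NOD value was -0.48 with endocrine scaling and -0.52 with the lymphocyte covariate. Of the 28 pairs of strains, 21 were called for Scg2, the highest number among the 10 genes.

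Scg3 (ENSMUSG00000032181.7, chromosome 9, 75643189 to 75684056), secretogranin III, which binds chromogranin A and the granule membrane, showed a smaller and different pattern. AJ was highest, with a median of 933 TPM (842 to 1030, n = 14), and NOD had a median of 464 TPM (309 to 692, n = 10), below all AJ libraries. The log2 fold changes were 0.48 in AJ (SE 0.06, adjusted p = 1.63e-11) and -0.43 in NOD (SE 0.07, adjusted p = 8.48e-08), and PWK was also lower (-0.42, SE 0.10). The NOD value turned to 0.05 with endocrine scaling and was -0.07 with the lymphocyte covariate, and it was called in neither. AJ thus combined the highest Scg3 with the lowest Scg2 in the model. The ratio of Scg2 to Scg3 was 2.03 in AJ and 13.6 in CAST (geometric means), a 6.67-fold span. All 14 AJ libraries (at most 2.26) were below the 77 libraries of the other strains (at least 2.82), and the 19 libraries of CAST and PWK (at least 7.54) were above the other 72 (at most 6.50). Between strains lay 93.4% of the variance of the log2 ratio (permutation test, p = 1e-05, the smallest 100000 resamples can give).

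Ptprn (ENSMUSG00000026204.15, chromosome 1, 75247027 to 75264502), which codes for IA-2, a major autoantigen of type 1 diabetes, had the narrowest log2 range between strains with upper-quartile scaling, 0.54. With endocrine scaling the range was 0.85, wider than that of Pcsk1 (0.62), Pcsk1n (0.57) and Pcsk2 (0.44). Its strain medians lay between 151 TPM in NOD (80.7 to 188, n = 10) and 240 TPM in PWK, whose libraries had 212, 301, 240, 137 and 287 TPM. The ranges of NOD and PWK overlapped through the PWK library with 137 TPM. Ptprn was lower in NOD (log2 fold change -0.36, SE 0.08, adjusted p = 5.03e-05), and its highest value, 0.26 in NZO (SE 0.11), was not called (adjusted p = 0.0622). With endocrine scaling Ptprn was called higher in NOD (0.17), and with the lymphocyte covariate it was not called there (-0.10). In NZO it was called under 8 alternatives, among them endocrine scaling (0.39) and the lymphocyte covariate (0.26). None of the 7 differences between neighbouring strains was called. Relative to Ptprn2, its paralog on the granule membrane, Ptprn was at 0.576 in B6 and 0.954 in NOD (geometric means of the ratio), with 62.8% of the variance between strains (permutation test, p = 1e-05, the smallest 100000 resamples can give).

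The ratio of Pcsk1 to Pcsk1n spanned 1.51-fold between the strains, from 0.194 in NZO to 0.293 in CAST, and strain accounted for 20.2% of its variance (permutation test, p = 0.0077). The ratio of Pcsk1 to Pcsk2 spanned 1.57-fold, from 0.123 in 129 to 0.193 in AJ (permutation test, p = 1e-05, the smallest 100000 resamples can give). These p-values were not adjusted over the 6 ratios computed, and the test took no account of sex.

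**Figure D3:**
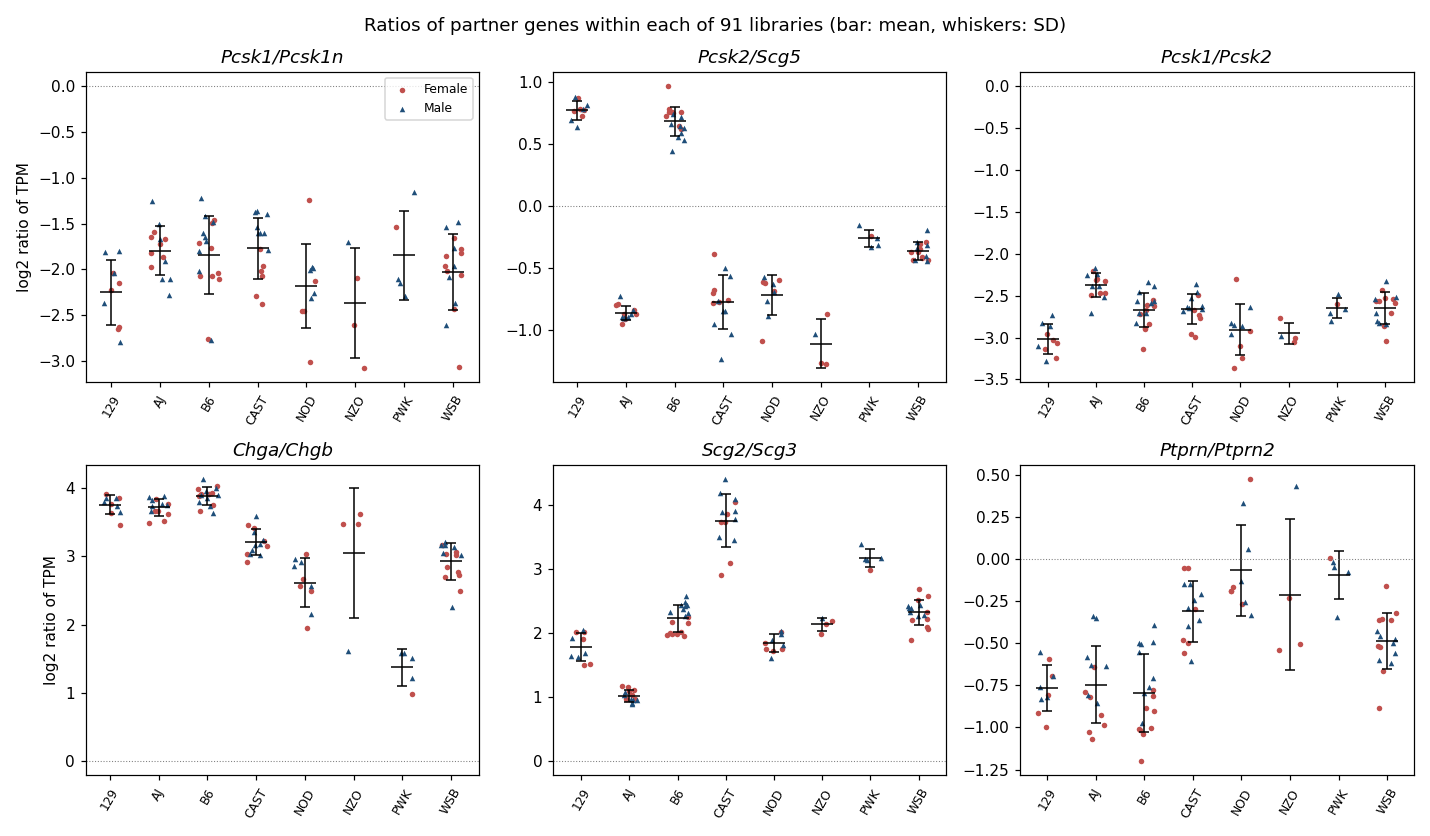
log2 ratio of TPM of 6 pairs of partner genes within each of the 91 libraries, by strain, with females as circles and males as triangles; the bar is the strain mean, the whiskers are the SD, and the dotted line marks equal levels. For Pcsk2/Scg5 every library of 129 and B6 lies above 0 and every other library below 0, and for Scg2/Scg3 AJ is lowest and CAST and PWK are highest.

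The lower counts in NOD were examined with a second scaling, in which each library was scaled by the 16 endocrine genes in place of its upper quartile. This moved the median of all genes by 0.59 on the log2 scale in NOD and by -0.39 in 129, and by at most 0.11 in size in the other 6 strains. Relative to the endocrine genes, NOD had 3 of the 10 genes higher (Scg5 0.55, Chgb 0.28 and Ptprn 0.17) and 3 lower (Scg2 -0.48, Chga -0.23 and Cpe -0.16), where 82.9% of all genes were higher and 4.29% lower, and the directions of Chgb, Ptprn, Pcsk2, Pcsk1n and Scg3 were opposite to those by upper quartile. In 129 the count turned from 4 higher and 4 lower to 1 higher (Chga 0.20) and 7 lower, where 5.26% of all genes were higher and 69% lower. With the level of lymphocyte genes as a covariate, 3 genes stayed lower in NOD (Scg2 -0.52, Pcsk1 -0.37 and Cpe -0.31) and the other 7 were not called, where 14.7% of all genes were higher and 9.63% lower. The part of lymphocytes in the NOD values cannot be told apart from strain, since the high lymphocyte sums were found in NOD alone. With this scaling Chga in PWK was -1.61, Scg2 in CAST 1.46 and Scg5 in B6 -1.03, beside -1.52, 1.45 and -0.94 by upper quartile, whereas Scg5 in 129 moved from -0.89 to -1.27. In PWK the count turned from 5 higher and 3 lower to 1 higher (Scg2 0.45) and 3 lower (Chga, Cpe and Scg3), where 12.5% of all genes were higher and 23.2% lower. In NZO the count turned from 4 higher and 1 lower to 6 higher and 0 lower, where 21.5% of all genes were higher and 6.12% lower. Without the 15 libraries with over 200000 acinar TPM, the count of calls over the 8 strains was 58, as with all libraries. Within this total B6 had 8 calls in place of 7 and CAST 8 in place of 9. The share of all genes called in this fit was not computed.

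**Figure D4:**
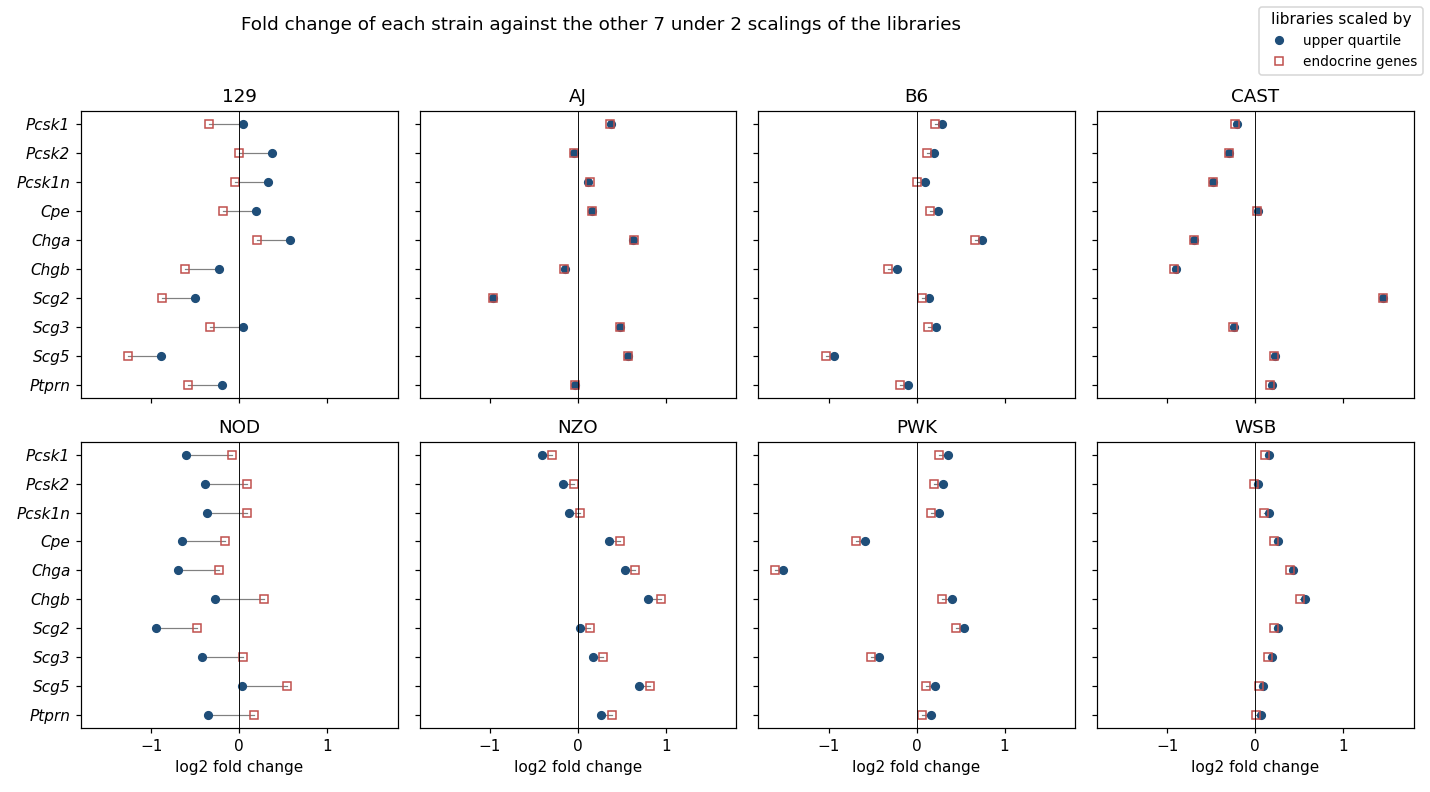
log2 fold change of each strain against the other 7 for the 10 genes, with libraries scaled by the upper quartile (filled circles) or by 16 endocrine genes (open squares). In NOD all 10 genes move to the right, and in 129 all move to the left, while in AJ, CAST and WSB the symbols nearly coincide.

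Strain differences were also tested within the sets of strains that share a range of library numbers. Within AJ, B6, CAST and WSB all 10 genes were called (86.6% of all genes), and within 129, NOD, NZO and PWK all 10 were called as well (81.6%). In these fits each strain is compared with the other 3 of its set. Scg5 was -1.07 in B6 (SE 0.04) and -1.05 in 129 (SE 0.10), Scg2 in CAST was 1.43 (SE 0.08), Chga was -1.14 in CAST (SE 0.06) and -1.46 in PWK (SE 0.21), and Cpe in NOD was -0.56 (SE 0.12). Inside the first set, libraries with later numbers had lower values of all 10 genes, and 6 were called (Pcsk1, Pcsk2, Cpe, Chga, Chgb and Scg5), where 44.4% of all genes were called in either direction. The log2 differences of the called genes were -0.10 to -0.19, smaller in size than the strain differences given in this paragraph. Some called differences of a strain against the other 7 were of like size, such as 0.16 for Pcsk1 in WSB and 0.19 for Ptprn in CAST.

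Sex as labelled had a small effect. Cpe was higher in males by 0.15 on the log2 scale (SE 0.04, adjusted p = 0.0300) and Ptprn by 0.15 (SE 0.05, adjusted p = 0.0482), so that 2 of the 10 genes were called, where 4.01% of all genes were. The Ptprn call was lost with TMM, median-ratio scaling, filterByExpr and limma-voom (adjusted p from 0.0517 to 0.0637), whereas Cpe was called in each. Mean Cpe was higher in males in 7 of 8 strains and mean Ptprn in 5 of 8. Scg2 (0.21, SE 0.07, adjusted p = 0.0541) was not called. Without the 12 libraries whose sex markers went against the label, all 3 were called, with log2 differences of 0.20 for Cpe, 0.19 for Ptprn and 0.30 for Scg2 (adjusted p = 0.000187). The share of all genes called for sex without these libraries was not computed. In B6 the male and female means of Scg2 were 217824 ± 21153 and 156009 ± 26857 normalized counts (SD, n = 9 each), whereas in AJ they were 93099 ± 5065 and 94974 ± 3906 (SD, n = 7 each). The interaction of strain and sex over the 82 libraries of 6 strains was called for 0 of the 10 genes by edgeR and by limma-voom, where edgeR called 5.9% of all genes. At an unadjusted p under 0.05 each tool had 2 of the 10 genes, which in edgeR were Ptprn and Scg2.

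The use of transcripts was read only through a weighted gene length, which cannot show a shift between transcripts of similar length. The authors' tables give a length for each gene that is weighted by the estimated abundance of its transcripts, and this length differed between strains for Chga, Scg2, Scg3 and Ptprn, 4 of the 8 genes whose length could vary, where 44% of all genes with a varying length were called (limma on log2 length). The log2 differences between the longest and the shortest strain mean were 0.01 to 0.08 for these 4 genes. Cpe had a wider difference, 0.13, that was not called (adjusted p = 0.0752). Pcsk1n and Chgb have a single annotated transcript.

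Other genes of the pathway were read from the same fit. Of 18 other processing enzymes 17 were tested and 16 differed between strains, as did all 14 other granule cargo and membrane genes and all 7 hormone precursors, beside the 97.4% of all tested genes given above. Of the enzymes, Cpm, a membrane carboxypeptidase, was 12.9-fold lower in PWK (0.51 TPM ± 0.234, SD, n = 5, against 4.68 ± 1.58, SD, n = 86). Ece2, a metalloprotease of the secretory pathway, was 8.70-fold higher in PWK (119 TPM ± 40.5 against 13.2 ± 8.79). Qpct, the glutaminyl cyclase that forms pyroglutamate ends on peptides, was 6.81-fold higher in CAST (17.2 TPM ± 4.81, n = 14, against 3.23 ± 1.57, n = 77). All 3 had adjusted p-values of at most 2.14e-34 in edgeR's quasi-likelihood test.
Among the granule genes, Vgf, a granin-like precursor, was 8.86-fold lower in PWK (log2 fold change -3.15, SE 0.45, adjusted p = 6.76e-09). The zinc transporter Slc30a8 was 1.99-fold lower in NZO, and Cadps2, a priming factor of granule exocytosis, was 1.74-fold higher in NZO. PWK thus held the lowest Chga and a low Vgf together with higher Scg2, and with a Chgb that was higher by upper quartile but not called with endocrine scaling. Of the hormone precursors, Sst (somatostatin) was 4.44-fold lower and Gcg (glucagon) 2.79-fold lower in NZO, and Pyy (peptide YY) was 2.41-fold lower in NOD.
In NOD, 10 of the 14 granule genes were lower and 0 higher (median log2 fold change -0.29), as were 8 of 17 enzymes with 2 higher (median -0.25), and 5 of 7 hormone precursors with 1 higher (median -0.34), beside a median of 0.03 over all tested genes. Of all tested genes 29.5% were lower and 35.8% higher in NOD. By the same scaling, 14 of the 16 endocrine genes used by all islet cells were lower in NOD and 0 higher (median -0.53). Of the genes of other cell types, all 14 tested acinar genes (median 1.49), all 12 tested lymphocyte genes (5.22), all 9 macrophage genes (2.74) and 7 of 8 stromal genes (1.72) were higher in NOD. Macrophage genes summed to 58.6 to 2864 TPM in NOD and to at most 266 TPM in any other library, and stromal genes to 55.5 to 437 TPM in NOD and to at most 321 TPM elsewhere. Of the 10 processing and granin genes, 9 were lower in NOD with the level of acinar genes as a covariate (30.3% of all genes, with 34.1% higher) and 3 with that of lymphocyte genes. The part of macrophages and stromal cells was not tested.

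The strain means of the 10 genes did not follow a single order. Over the 8 strain means, on log2(normalized count + 1), 7 of the 45 pairs of the 10 genes had a Pearson correlation above 0.7, 10 were negative, and the median was 0.19. The highest were Pcsk2 with Pcsk1n (0.89) and Chga with Scg3 (0.89), and Pcsk2 and Scg5 had -0.56. These are descriptions over 8 points that share the same libraries and scaling. Among all tested genes with a mean of at least 1 TPM, the pattern most like that of Chga was that of Stim1 (0.997), a calcium sensor of the endoplasmic reticulum, followed by Specc1l (0.98). Sv2a, a vesicle glycoprotein, was closest to Cpe (0.99), Hs6st3 to Scg3 (0.99), Msh3 to Chgb (0.98), Inha to Pcsk1n (0.97), Ubxn6 to Pcsk1 (0.97), Hist3h2a to Scg2 (0.95), Plekhb2 to Scg5 (0.95) and Tada2b to Ptprn (0.94).

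The tested genes on either side of Scg5, Chga, Scg2 and Chgb were chosen after the values of these 4 genes were seen. Fmn1 (formin 1), 59.6 kb from Scg5, was lower in B6 (log2 fold change -1.63, SE 0.11, adjusted p = 5.05e-23) and in 129 (-0.77, SE 0.13, adjusted p = 1.11e-06), the strains with low Scg5, at a mean of 0.856 TPM over all libraries. Arhgap11a, 2.37 kb on the other side, was not called in either strain (-0.30, SE 0.14 in B6 and -0.02, SE 0.17 in 129). Beside Chga, Golga5 had -0.12 (SE 0.05, adjusted p = 0.0422) and Itpk1 -0.18 (SE 0.09, adjusted p = 0.108) in PWK, where Chga had -1.52. Beside Scg2 in CAST, Ap1s3 and Kcne4 were lower (-0.43 and -0.34), in the direction opposite to Scg2. Beside Chgb in CAST, Trmt6 was higher by 0.14 (SE 0.04, adjusted p = 0.00316 in edgeR), and the gene on the other side had 0.00 (SE 0.05).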

How the data were processed

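RNA-seq of whole islets was available as 91 libraries in 16 samples, each sample holding the libraries of 1 strain and 1 sex. The authors quantified reads with RSEM on GENCODE vM18 and mm10, the B6 reference. The RSEM version, aligner and strandedness are not given in the sources used here. The deposited expected counts per gene are not normalized between libraries, and they were rounded to whole numbers for the tests. The deposited TPM values are scaled by RSEM within each library. The deposited gene length, in bases, is weighted by the estimated abundance of transcripts. How alleles of the other strains align to the B6 reference was not tested.

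Strain and sex were taken from the labels. Of 54146 genes, 54079 were matched by identifier to GENCODE M21 (GRCm38). After restriction to protein-coding genes of the autosomes and X, the lowest 10% in variance and those detected in under 85% of libraries were dropped, which left 15204. The test was edgeR's quasi-likelihood F test (version 4.0.16, under R 4.3.3) with strain and sex as terms, after upper-quartile normalization. Benjamini-Hochberg adjustment of the p-values ran over all tested genes of a contrast. An adjusted p under 0.05 was called. To obtain normalized counts, each library was divided by its effective size, expressed relative to the mean size. Gene lengths were tested with limma 3.58.1, and ratios of TPM, without a pseudocount, by permuting strain labels over libraries 100000 times. The tests were first tried on simulated data with known changes. At these depths 3 counts correspond to 0.0852 to 0.177 CPM (counts scaled to a fixed library total), which covers counting error only.

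The genes, lists and comparisons were chosen with earlier results of these data known. All 10 genes were named, with their highest and lowest strain. Of each other list the 3 genes with the largest called change were named, and for each of the 10 genes those whose strain means correlated best with it, except for 1 gene not reported here. Alternatives were TMM, median-ratio and endocrine-gene scaling, 2 other gene filters, limma-voom, DESeq2 1.42.0, no sex term, covariates for acinar or lymphocyte genes, libraries summed within each sample, omission of some libraries, and an added log2 fold change of at least 1. Leaving out the libraries with over 200000 acinar TPM, or NOD replicate 7, was added after seeing the data. Figures were drawn with matplotlib 3.10.9.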

Additional observations from a re-analysis of the deposited data

Results flagged for a closer look

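Within the groups of 4 to 10 libraries, 6 of the 40 combinations of gene and strain had 1 library that stood far from the others in TPM by Dixon's criterion, which chance gives in about 1 in 20 groups. In PWK, replicate 4, a male, was the lowest in TPM for all 10 genes and stood apart for 4 of them, with 439 TPM of Pcsk2, 645 TPM of Cpe, 3004 TPM of Scg2 and 552 TPM of Scg5. The nearest other PWK libraries had 919, 1231, 5196 and 1097 TPM. Acinar genes summed to 370578 TPM in this library, the highest of PWK, and on normalized counts its Scg2 value, 238493, lay within the range of the other PWK libraries. For Pcsk2 (70837 against at least 86424), Cpe (45446 against 48507) and Scg5 (21314 against 24527) it remained the lowest of PWK. Without it PWK had 5 of the 10 genes higher and 3 lower, as with it. With all libraries 23.2% of all genes were higher and 21.8% lower in PWK, and the shares without this library were not computed.

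In NZO, replicate 1, a female, had 9231 TPM of Chga against 7002 in the next library, and its acinar sum of 11205 TPM was the lowest of the 4. Replicate 4, the single NZO male, had 2155 TPM of Chgb against 752 in the next library, at an acinar sum of 76015 TPM. On normalized counts this library was also far above the others for Chgb, at 139767. With 1 male in the strain, sex and the library cannot be told apart.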

How the results depend on the processing

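The count of strain calls for the 10 genes was within 1.5 times of the reported one under the other normalizations, filters, tests and covariates and with single NZO or PWK libraries left out. It was 33 in place of 58 when the libraries of each sample were summed (16 samples), and the cause of this fall was not tested. The share of all genes called in that fit was not computed. With an added log2 fold change of at least 1, 4 of the 10 strain effects and 2 of the 58 calls were left. The number of genes called for sex was 1 in place of 2 with TMM, median-ratio scaling, filterByExpr and limma-voom, and 3 with DESeq2 or without the libraries whose sex markers went against the label, and the cause was not tested. Scaling by endocrine genes reversed 5 of the 20 named contrasts, to -0.0085 for Pcsk2 and -0.053 for Pcsk1n in 129, and to 0.092 for Pcsk2, 0.045 for Scg3 and 0.17 for Ptprn in NOD. With the same scaling and without the libraries over 200000 acinar TPM, these were -0.029, -0.053, 0.12, 0.042 and 0.25, and Cpe in NOD was no longer called (-0.14, adjusted p = 0.122 in edgeR's quasi-likelihood test). With the lymphocyte covariate Pcsk2, Scg3 and Ptprn in NOD were no longer called. Summed samples left Pcsk2 in 129 (0.35) and Chgb in CAST (-0.97) uncalled. Ptprn in NZO was called (0.26 to 0.47) without NZO replicate 2 or 3, NOD replicate 7 or the sex-discordant libraries, with the lymphocyte covariate, summed samples, and endocrine scaling with or without the acinar-rich libraries, and was 0.0052 without NZO replicate 4. On normalized counts each of the 6 ratios kept its highest and lowest strain and its side of the threshold. Normalized counts do not account for gene length, and Pcsk2 over Scg5 was then above 1 in every strain. No paired analysis was possible because the labels give the libraries no replicate numbers shared between strains. NZO, with 4 libraries, and PWK, with 5, set the limit of precision, and the wave of each library is not given.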
